A study of Mus musculus with 2 samples.

Results

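Cluster 7 was the set of liver immune cells that the deposited annotation named CD8ab T cells and placed in cluster 7 of its clustering at resolution 1.2. It held 451 of 11929 cells, of which 319 came from TG mice and 132 from WT mice. Every cell of that cluster carried the name CD8ab T. At the finer deposited resolution 317 of the TG cells and 128 of the WT cells stayed together in 1 cluster. Transcripts of each cell were counted on the BD Rhapsody system together with the tags of 49 antibodies against surface proteins. The genotype TG is dnTGFβRII. In these mice the mouse CD4 promoter drives a human type II receptor for TGF-β that acts as a dominant negative, on the B6 background, so the transgene is not limited to CD8 T cells. WT mice are C57BL/6 controls. TG cells were captured in a pool with IFN-γ ARE-Del-/- mice and WT cells in a pool with P40-/-IL-2Ra-/- mice, with an age of 10 weeks in the labels and a younger one in the study's methods. With 1 capture per genotype, genotype and library cannot be told apart, and no test between genotypes was made.

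Dividing cells copy their DNA in S phase and separate it in G2 and M phase, and each phase has its own set of transcripts. Mki67 encodes the nuclear protein Ki-67 of cycling cells, Top2a the topoisomerase that untangles DNA, Birc5 the mitotic protein survivin, Pclaf a partner of the replication clamp PCNA, and Ccna2 cyclin A. T cells of the liver that meet antigen leave the resting state and divide before they become effector or memory cells. CD8 T cells carry a CD8 receptor of an α and a β chain (Cd8a and Cd8b1), and helper T cells carry CD4. A clustering led by cell cycle genes can place cells of several lineages together, so the lineage of each cell was looked at through both coreceptors.

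The members held 2418734 transcript molecules (UMIs) in TG and 938420 in WT, with medians per cell of 7454 and 6614. The other CD8ab T clusters had medians from 2254 to 5485. Levels are given as CPM, the UMIs of a gene per 1000000 UMIs summed over the cells of a set, and all intervals are 95% intervals that cover counting error only. Mouse Tgfbr2 (GRCm38, chromosome 9, 116084293 to 116175360, minus strand) had 299 CPM in TG members (278 to 322) and at 109 CPM in WT members (88.6 to 132). In mature B cells the Tgfbr2 levels were 218 and 232 CPM, so the higher level of TG was seen in cluster 7 and not in B cells. Whether reads of the human transgene were counted under this gene was not tested. The libraries shared 267 cell numbers, 36 of them among named cells and 0 among members. Among genes of the filtered counts, 630 in TG and 365 in WT were at 0 in every cell, so a 0 can be a filter. Transcripts of other lineages were also counted in members. S100a8, a neutrophil gene, had a UMI in 51.1% of TG members and in 18.2% of WT members, against 23.4% and 8.90% of mature B cells, whose median depths were 2923 and 2045 UMIs.

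The 5 markers that give the cluster its name were high in both libraries. Mki67 (chromosome 7, 135689784 to 135716361, minus strand) had 1127 CPM in TG members (1086 to 1171) and at 1035 CPM in WT members (971 to 1102). In the other CD8ab T clusters Mki67 was at 23.9 CPM (TG) and 8.46 CPM (WT). Top2a was at 1513 and 1577 CPM in members, Pclaf at 1198 and 1252 CPM, Birc5 at 627 and 643 CPM, and Ccna2 at 461 and 452 CPM. The marker levels of TG and WT members were therefore close, with log2 ratios from -0.06 for Top2a and Pclaf to 0.12 for Mki67 (0.02 to 0.23). Within classes the Mki67 log2 ratio was -0.11 in CD4-high, -0.13 in CD8b-high and 0.43 (0.21 to 0.65) in both-low members, classes that are set out below. Since members are deeper than other cells, each cell was also thinned to 1000 UMIs. A UMI of Top2a then remained in 62.7% of TG members and 62.9% of WT members, against 3.71% and 1.46% of the other CD8ab T cells. Without thinning the Top2a shares were 89.7% and 83.3% of members. Cells with UMIs of at least 2 markers after thinning were 240 of 319 TG members and 93 of 132 WT members. These were 91.6% of all such cells in TG and 88.6% in WT. The clusters were made from these genes, so these shares partly restate the clustering. Thinning also removes UMIs of cells with few of them. Without thinning, Mki67 had a UMI in 15.1% of TG and 4.22% of WT CD4 T cells, against 3.65% and 1.27% of mature B cells. The Top2a shares of CD4 T cells were 11.3% and 5.72%, against 4.59% and 2.54% of mature B cells.

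The promoter windows of the markers are shown because cell cycle genes are known to share short elements near their start. The cell cycle homology element (TTTGAA or TTCGAA) is known from genes of G2 and M phase, the E2F core (TTCCCGC or TTGGCGC) from genes of S phase, and the CCAAT box from both. RefSeq windows of 300 bases (250 before the start and 50 after it, build GRCm38.p6) were matched for 4 of the 5 markers. Capitals mark any of these 5 motifs on either strand. TTCGAA reads the same on both strands and is counted once, and none of the motifs shown share bases.
Mki67, chr7:135716330-135716629, minus strand: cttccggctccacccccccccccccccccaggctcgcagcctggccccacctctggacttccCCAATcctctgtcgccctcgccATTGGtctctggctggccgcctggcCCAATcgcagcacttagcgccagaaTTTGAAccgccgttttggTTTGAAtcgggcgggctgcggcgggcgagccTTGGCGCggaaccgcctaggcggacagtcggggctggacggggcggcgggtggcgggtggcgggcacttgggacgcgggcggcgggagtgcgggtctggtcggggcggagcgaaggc
Top2a, chr11:99024140-99024439, minus strand: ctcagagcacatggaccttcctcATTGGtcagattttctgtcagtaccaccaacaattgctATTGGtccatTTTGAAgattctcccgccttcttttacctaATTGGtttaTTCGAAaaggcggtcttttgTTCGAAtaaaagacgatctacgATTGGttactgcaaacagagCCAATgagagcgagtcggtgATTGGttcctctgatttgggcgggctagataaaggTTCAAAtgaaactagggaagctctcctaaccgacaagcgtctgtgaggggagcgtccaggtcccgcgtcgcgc
Pclaf, chr9:65890073-65890372, plus strand: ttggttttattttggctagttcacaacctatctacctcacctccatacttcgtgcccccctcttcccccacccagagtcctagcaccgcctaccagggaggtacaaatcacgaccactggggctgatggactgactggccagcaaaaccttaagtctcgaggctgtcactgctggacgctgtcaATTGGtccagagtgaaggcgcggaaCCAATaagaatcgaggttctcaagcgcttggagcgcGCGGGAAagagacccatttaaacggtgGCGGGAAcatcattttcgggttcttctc

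The Mki67 window held 2 matches of TTTGAA, 3 of CCAAT and 1 of TTGGCGC. The Top2a window held 2 of TTTGAA, 2 of TTCGAA and 6 of CCAAT. The Pclaf window held 2 of CCAAT and 2 of TTCCCGC, the second of these beyond the start. The Birc5 window held none of the letters searched. Over the list of G2 and M phase genes, 37 of 50 windows (74.0%) held TTTGAA or TTCGAA, against 19.2% of all 32851 windows in the RefSeq table. Over the S phase list, 20 of 38 windows (52.6%) held TTCCCGC or TTGGCGC, against 6.81% of all windows. CCAAT was in 76.0% of the G2 and M windows, 65.8% of the S phase windows and 37.4% of all windows. A match is a run of letters and not a bound site.

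Members made up 319 of 4647 liver immune cells in TG, or 6.86% (6.15% to 7.63%), and 132 of 7282 in WT, or 1.81% (1.52% to 2.15%). TG minus WT was thus 5.05 percentage points (4.28 to 5.87, Newcombe interval). Taken as a share of all cells named CD8ab T, members were 31.3% in TG and 16.1% in WT, and of all T and NKT cells 14.97% and 3.16%. The share was higher in the TG library with each denominator.

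Both phases of the cycle were present. In cells thinned to 1000 UMIs the median count over 47 S phase genes was 7 in TG members and 6 in WT members, and that over 51 G2 and M phase genes was 14 and 15. In the other CD8ab T cells the medians were 1 and 2 in both libraries. More S than G2 and M phase UMIs were found in 84 of 319 TG members, or 26.3% (21.6% to 31.5%), and in 39 of 132 WT members, or 29.5% (21.9% to 38.1%). The counts differed by 2 UMIs or fewer in 47 and 20 of these cells. The intervals of TG and WT overlapped. Cells with more S phase UMIs were also 26.7% and 18.9% of the other CD8ab T cells and 24.2% and 25.8% of mature B cells. The share alone therefore does not give the part of members in S phase.

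**Figure D1:**
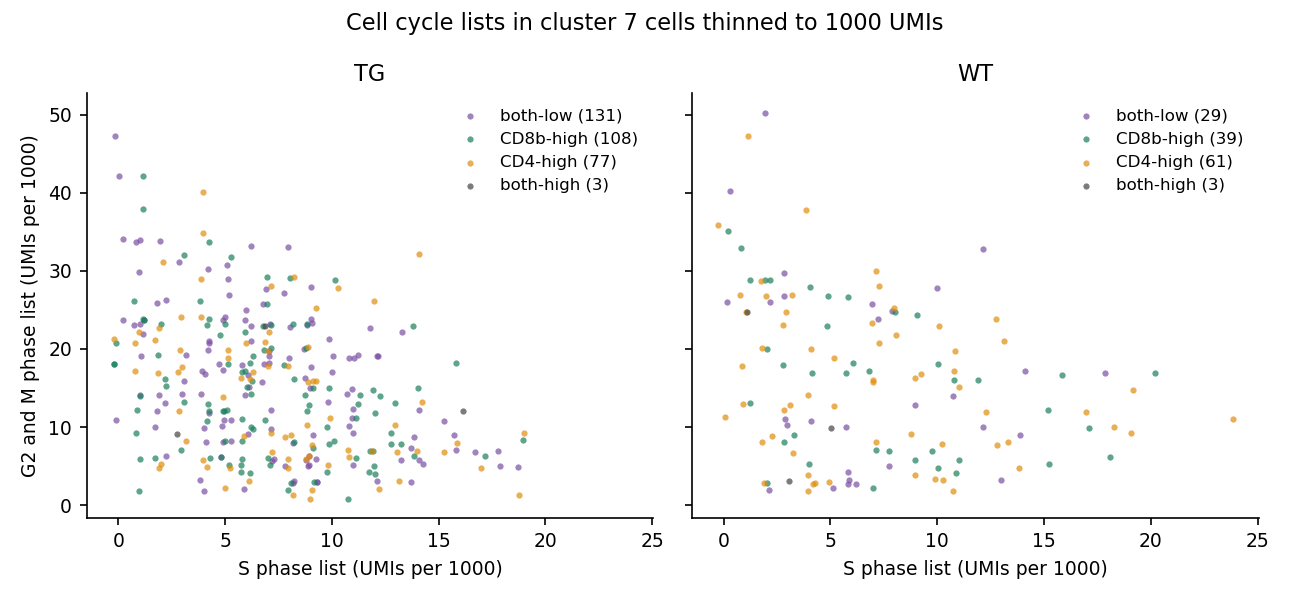
S phase list against G2 and M phase list in UMIs per 1000 UMIs of each cluster 7 cell, coloured by antibody class, with TG on the left and WT on the right and points jittered. Cells of the 3 larger classes spread over the same range in both libraries, with medians of 7 and 14 in TG and of 6 and 15 in WT.

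The coreceptors did not match the name CD8ab T in most members. Gates on the deposited CD4 and CD8b antibody values (natural-log centred ratios) were set per library from a mixture of 2 normal distributions over the named CD4 T and other CD8ab T cells, at 2.75 in TG and 2.05 in WT for CD4 and at 1.13 in both for CD8b. CD8b-high CD4-low cells, called CD8b-high below, were 108 of 319 TG members, or 33.9% (28.7% to 39.3%), and 39 of 132 WT members, or 29.5% (21.9% to 38.1%). In the other CD8ab T clusters they were 72.0% and 68.0%. CD4-high CD8b-low cells, called CD4-high, were 77 of the TG members, or 24.1% (19.5% to 29.2%), and 61 of the WT members, or 46.2% (37.5% to 55.1%). In the other CD8ab T clusters CD4-high cells were 8.42% and 6.70%. Cells low for both were 131 of the TG members, or 41.1% (35.6% to 46.7%), and 29 of the WT members, or 22.0%. In the other CD8ab T clusters both-low cells were 19.1% and 21.4%, so the share of WT members was close to that of the other clusters. Both antibodies were high on 3 members in each library. The cells are therefore called by their cluster number and antibody class and not CD8ab T cells.

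**Figure D2:**
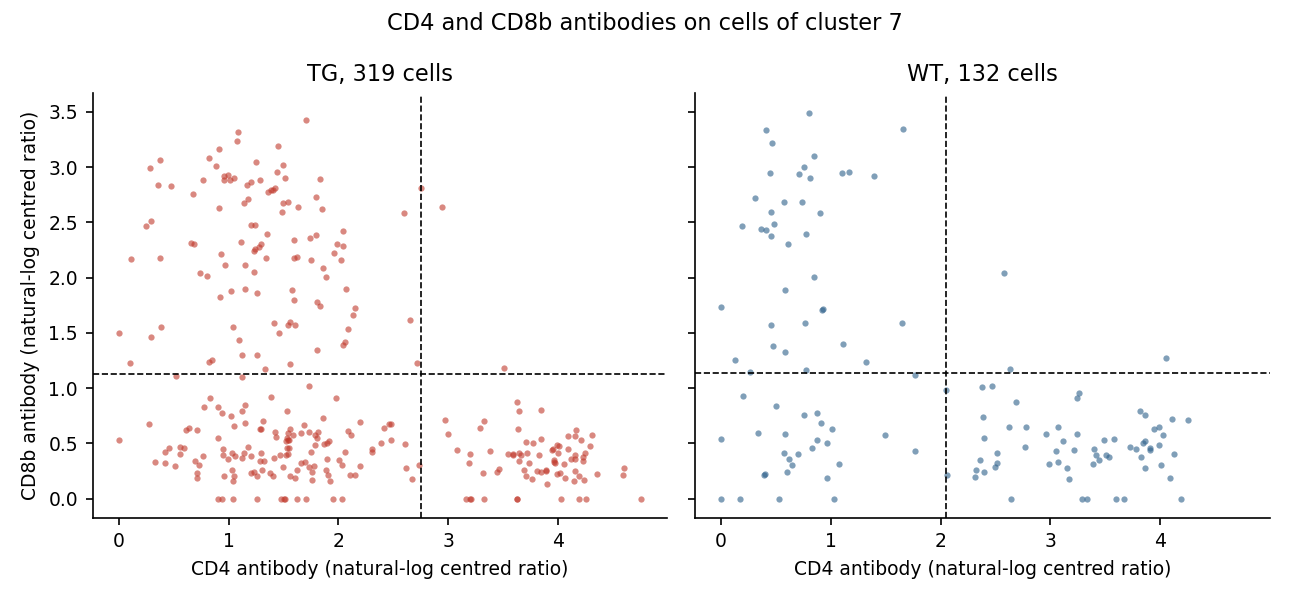
CD8b antibody against CD4 antibody in natural-log centred ratios for each cluster 7 cell, with dashed lines at the gates of each library. Cells lie in 3 groups, with 77 TG and 61 WT cells at the lower right, 108 and 39 at the upper left and 131 and 29 at the lower left.

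**Figure D3:**
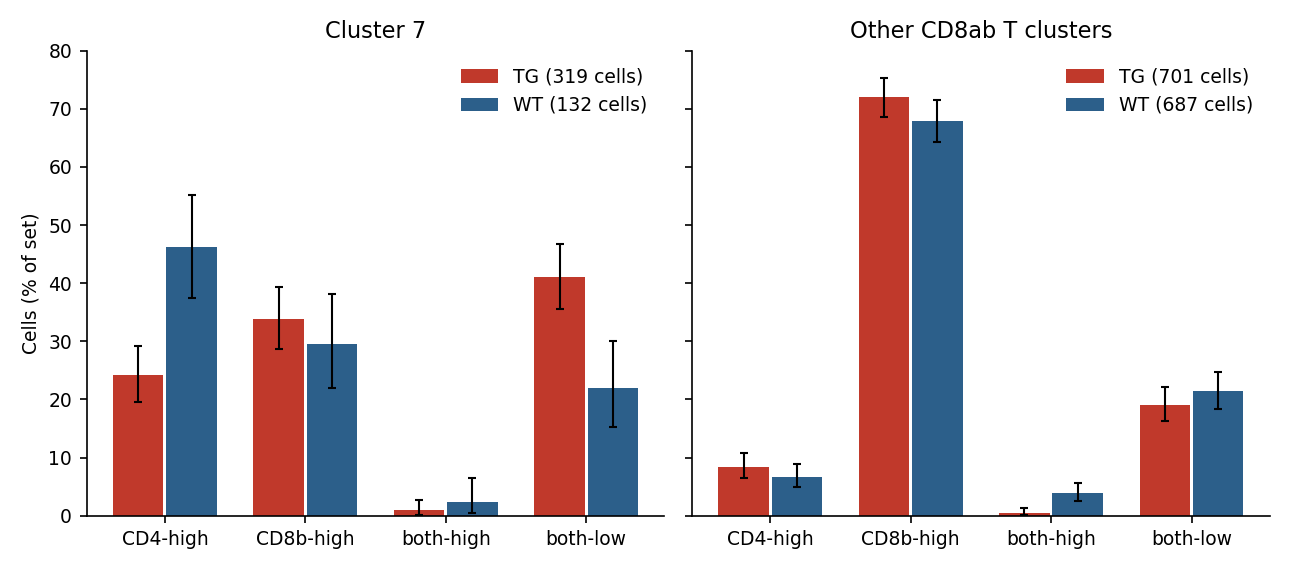
Share of cells in each antibody class in percent, for cluster 7 on the left and the other CD8ab T clusters on the right, with exact 95% intervals as bars. CD8b-high cells are 72.0% and 68.0% of the other clusters and 33.9% and 29.5% of cluster 7.

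The share of CD4-high cells was 22.1 percentage points lower in TG than in WT (the TG minus WT difference was -22.1, with an interval from -31.6 to -12.4). For both-low cells the TG minus WT difference was 19.1 points (9.69 to 27.4), and for CD8b-high cells it was 4.31 points (-5.34 to 13.2), an interval that includes 0. These differences depended on the gate. With 1 gate for both libraries the CD4-high difference was -11.7 points, and both-low cells were 39.8% of TG and 31.1% of WT members. With gates at the 95th percentile of the opposite named class, both-low cells were 49.5% and 37.9%. When classes were set by transcripts, over the 243 TG and 84 WT members with a Cd4 or Cd8b1 UMI, cells with Cd4 and no Cd8b1 were 53.5% in TG and 48.8% in WT, a difference of 4.69 points in the opposite direction. This measure changes the cells counted as well as the gate and has no both-low class. Counted among all liver immune cells, each class was more frequent in TG, with CD4-high members at 1.66% in TG and 0.838% in WT, CD8b-high members at 2.32% and 0.536%, and both-low members at 2.82% and 0.398%. The CD8b antibody was also above its gate on 920 of 1068 TG and 1281 of 1494 WT mature B cells that were low for CD4, so CD8b-high alone does not mark T cells. The CD4 gate in turn passed 319 of 446 TG and 1156 of 2232 WT cells named NKT (71.5% and 51.8%), so CD4-high does not separate conventional CD4 T cells from NKT cells. With the percentile gate the NKT shares were 28.3% and 6.45%.

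Transcripts of the coreceptors followed the antibody classes. Cd4 (chromosome 6, 124864692 to 124888221, minus strand) had 644 CPM in TG CD4-high members (582 to 711) and 320 CPM in WT ones (269 to 378), against 76.8 and 16.9 CPM in CD8b-high members. Cd8b1 (chromosome 6, 71322788 to 71337494, plus strand) was at 1078 CPM in TG CD8b-high members (1011 to 1148) and 1306 CPM in WT ones (1179 to 1443), and at 9.74 and 25.5 CPM in CD4-high members. Neither gene belongs to B cells, and mature B cells had Cd8b1 at 17.0 and 66.0 CPM and Cd4 at 25.3 and 37.0 CPM, so the Cd8b1 of CD4-high members lay below that of B cells in both libraries. A Cd4 UMI was found in 44 of 108 CD8b-high members of TG, or 40.7%, and in 2 of 39 of WT, or 5.13%. The share of B cells with a Cd4 UMI was 5.15% in TG and 5.29% in WT at lower depth. Cells named NK held a Cd4 UMI in 44.1% of TG cells and 2.76% of WT cells. Cd4 transcripts outside CD4-high cells were thus frequent in the TG library in T and NK cells but not in B cells, and the cause was not tested.

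CD4-high and CD8b-high members were then compared within each library over 2584 genes with at least 50 UMIs over both profiles in each library. Called genes are those at least 2-fold apart in the same direction in both libraries, and 35 genes were called (1.35%), of which 20 were higher in CD4-high cells (0.774%) and 15 lower (0.58%). The gate used the antibodies, so Cd4, Cd8a and Cd8b1 restate it, while the other transcripts were not used by it. Few genes separated the classes, and none of the 5 proliferation markers, 36 S phase genes or 40 G2 and M phase genes that could be compared was called. Mki67 was at 925 and 998 CPM in CD4-high members and at 950 and 1039 CPM in CD8b-high members.

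Among genes higher in CD4-high members were some known from helper and regulatory T cells, of which Cd40lg and Izumo1r were also found in cells named NKT. Maf, a transcription factor of helper T cells, was at 339 CPM in TG CD4-high cells and 269 CPM in WT ones, with log2 ratios over CD8b-high cells of 2.91 (2.41 to 3.43) and 3.00 (2.07 to 4.09). Icos, a costimulatory receptor, had log2 ratios of 2.20 and 2.01, and Cxcr6, a receptor of liver-homing T cells, of 1.98 and 1.85. Izumo1r, which encodes folate receptor 4 of regulatory and helper T cells, stood at 127 and 116 CPM against 11.3 and 6.75 CPM. Ikzf2 (Helios) had log2 ratios of 1.64 and 2.66, Tnfrsf18 (GITR) of 2.18 and 1.23, and Gata3, a factor of helper T cells, of 1.25 and 1.24. The GITR antibody (CD357) followed its transcript, with median values of 1.68 and 1.35 on CD4-high members and 0.76 and 0.44 on CD8b-high members. Cd40lg, the ligand by which helper T cells stimulate B cells, had a UMI in 29 of 77 and 20 of 61 CD4-high members and in 1 CD8b-high member of each library. Foxp3, the factor of regulatory T cells, had UMIs in 6 TG and 9 WT CD4-high members, at 48.7 and 114 CPM, so most of these cells had no Foxp3 UMI at this depth. Of the regulatory T cell list, 3 of 4 genes that could be compared were called higher. The other genes with the largest ratios were Art2b, Trat1, Ass1, Psen2 and Ly6a, with log2 ratios from 1.30 to 1.83.

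Lower in CD4-high members were genes of cytotoxic cells. Ccl5, a chemokine stored by CD8 T cells, was at 2901 and 977 CPM against 7628 and 3371 CPM in CD8b-high members, with log2 ratios of -1.40 (-1.47 to -1.32) and -1.79 (-1.95 to -1.62). Gzma, a granzyme, had a log2 ratio of -1.50 in TG and -5.44 in WT, where CD4-high members held 20 Gzma UMIs. Serpinb9, the inhibitor that protects a cell from its own granzyme B, had log2 ratios of -1.09 and -1.31. Plek, Actn1, Ak3, Ctla2a and Runx2 were lower with log2 ratios from -1.06 to -2.23. Of the cytotoxic effector list 3 of 9 genes were called lower and 0 higher. The B cell genes Cd79a and Ms4a1 were also lower in CD4-high members, with Ms4a1 log2 ratios of -3.41 and -3.26, beside the CD8b antibody values of B cells given above. With mixed cells left out that hold UMIs of the B and the T lineage, a choice made after seeing the data, 31 genes were called in place of 35, of which 28 were shared.

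Both-low members carried transcripts of NK and unconventional T cells. Ncr1, the activating receptor NKp46, was at 341 CPM in TG both-low members (304 to 382) and 264 CPM in WT ones (196 to 348), and had a UMI in 75 of 131 and 11 of 29 cells. In CD8b-high members Ncr1 was at 72.3 CPM in TG, and 3 of 39 cells of WT had a UMI. Klrb1c, which encodes NK1.1, was at 421 and 411 CPM in both-low members against 122 and 54.0 CPM in CD8b-high members. Trdc, the constant region of the δ chain, had 193 CPM (TG) and 348 CPM (WT) but came from 11 of 131 and 5 of 29 cells. Zbtb16 (PLZF), the factor of NKT cells, was at 6.73 and 63.3 CPM with UMIs in 6 cells of each library. Cd3e, a chain of the T cell receptor complex, had UMIs in 87.8% of TG and 55.2% of WT both-low members. The TCRβ antibody exceeded the lowest 5% of other CD8ab T cells on 74.8% of TG and 58.6% of WT both-low members, and also on 54.0% and 22.4% of cells named NK. The both-low class was thus mixed, and cells of it are given no lineage name. Cd8a was higher than Cd8b1 there in TG, at 214 CPM against 22.4 CPM, while WT both-low members had 73.8 CPM of Cd8a in 4 cells. Summed levels do not show whether single cells held Cd8a without Cd8b1.

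The cluster was compared with the other CD8ab T clusters within each library over 6769 genes. This is a description, since the clusters were made from these genes and the cells differ in lineage as shown above. The other clusters include cluster 4, taken as naive, with 145 of their 701 TG cells and 363 of their 687 WT cells. Cluster 13, taken as central memory, had 177 of the TG and 138 of the WT cells. At 2-fold in both libraries 774 genes differed (11.4%), of which 493 were higher in cluster 7 (7.28%) and 281 lower (4.15%). When ribosomal protein and mitochondrial genes were left out of the totals the median of all genes moved from 0.02 to -0.15 in TG and to -0.17 in WT, and the split became 403 higher and 444 lower. Lists below are read against the median of all genes of 0.02 in both libraries.

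**Figure D4:**
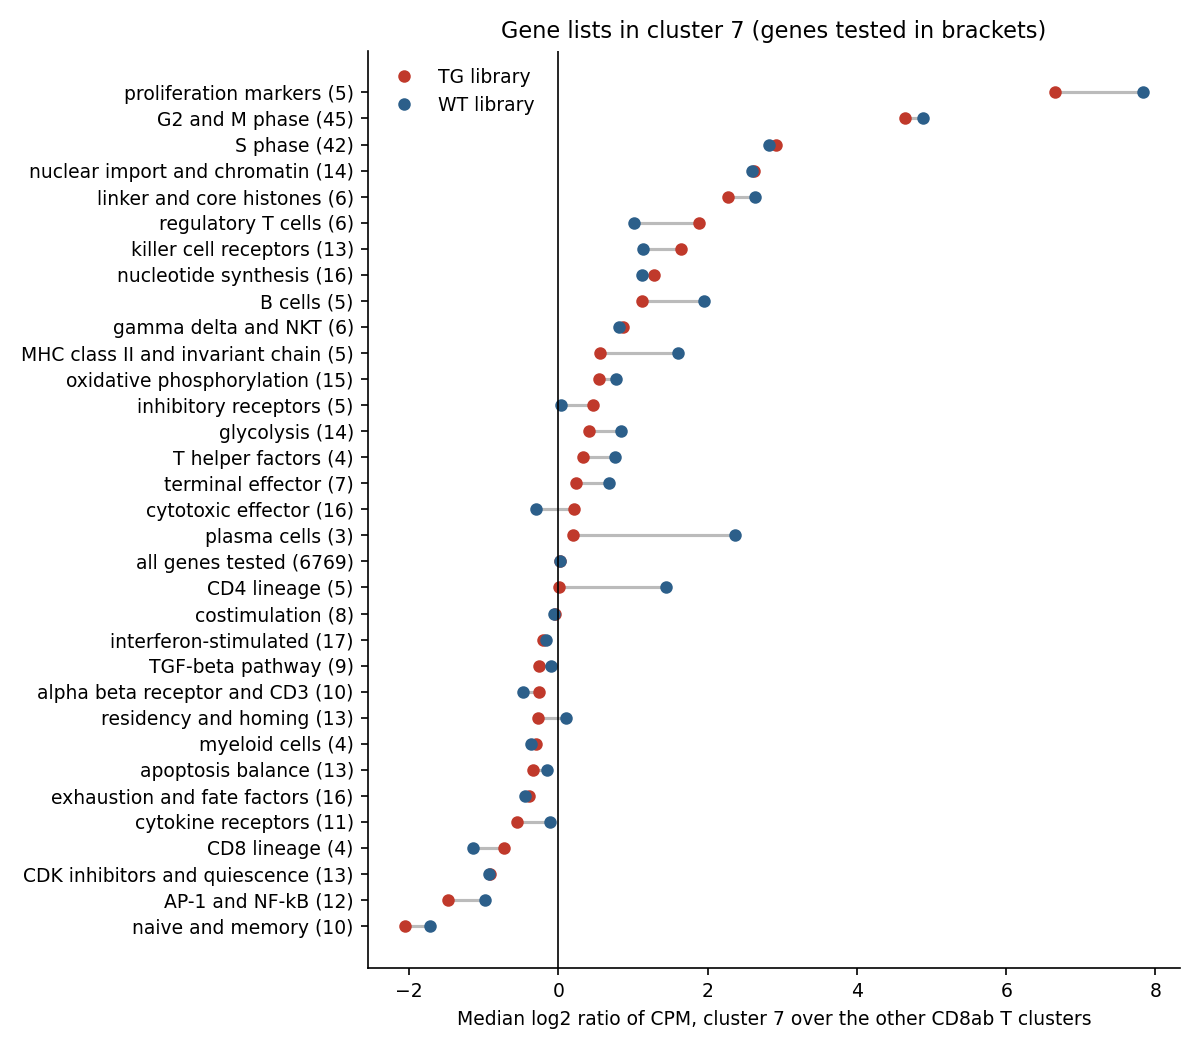
Median log2 ratio of CPM in cluster 7 over the other CD8ab T clusters for each gene list, with the TG library in red and the WT library in blue. Cell cycle lists lie at the top, from 2.82 to 7.83, and the naive and memory list at the bottom, at -2.05 in TG and -1.72 in WT.

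Chromatin and nucleotide synthesis genes were higher. Of 14 genes of nuclear import and chromatin 13 were called higher, with medians of 2.62 in TG and 2.60 in WT. Stmn1, a regulator of microtubules, was at 1447 and 1512 CPM against 66.9 and 29.6 CPM in the other clusters, and Hmgb2, a chromatin protein, at 4142 and 4548 CPM against 430 and 376 CPM. Of 16 genes of nucleotide synthesis 9 were called higher. Rrm2, the subunit of ribonucleotide reductase made for S phase, was at 562 and 437 CPM against 16.3 and 3.29 CPM, and Tk1 and Tyms had log2 ratios from 3.81 to 5.97. Glycolysis had 1 of 14 genes called, Tpi1 with log2 ratios of 1.85 and 1.72, a share near that of all genes, and oxidative phosphorylation had 0 of 15 called. Without regard to size, 9 of 14 and 13 of 15 of these genes were higher in both libraries, against 2817 of all 6769 genes. Whole cell cycle gene families, such as Kif, Cenp and Hist, were left out of the ranking beside the genes of the cell cycle lists. Of the genes left, the 10 with the largest ratios were Cep55, Spag5, Neil3, Aspm, Esco2, Espl1, 1500009L16Rik, Mxd3, Depdc1a and Stil. Cep55 acts in the last step of cell division, Aspm and Spag5 at the spindle, Espl1 and Esco2 on the cohesin that holds sister chromatids, and Neil3 in DNA repair. Cep55 was at 98.8 and 108 CPM against 2 and 1 UMIs in the other clusters, with log2 ratios of 7.16 (5.29 to 10.2) and 7.84 (5.33 to 13.2).

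Genes of resting and long-lived T cells were lower. All 10 genes of the naive and memory list were lower in both libraries, and 7 were called. Il7r, the receptor for the survival cytokine IL-7, was at 69.0 CPM in TG members and 133 CPM in WT members against 720 and 960 CPM, with log2 ratios of -3.38 (-3.62 to -3.15) and -2.85 (-3.12 to -2.59). Tcf7 and Lef1, factors of naive and memory T cells, had log2 ratios of -2.14 and -1.52 and of -2.10 and -1.93. Ccr7, a receptor for homing to lymph nodes, had -2.63 and -2.05, and Bcl2, which protects from cell death, was at 74.0 and 104 CPM against 297 and 272 CPM. The 5 called genes of the list of cell cycle inhibitors and quiescence factors that were lower were Btg1, Btg2, Tob1, Klf4 and Foxp1, with log2 ratios from -1.08 to -1.93, while Cdkn2c and Rb1 were called higher. Cdkn2c encodes the CDK inhibitor p18, at 101 and 81.0 CPM against 8.32 and 8.46 CPM. All 12 genes of the AP-1 and NF-κB list were lower and 5 were called, among them Jun at 366 and 547 CPM against 1359 and 1373 CPM and Tnfaip3 with log2 ratios of -2.07 and -1.87. Smad7, an inhibitor of TGF-β signalling that the pathway itself induces, had 32.3 and 49.0 CPM in TG and WT members against 130 and 223 CPM, the only called gene among 9 of its pathway. Of 17 interferon-stimulated genes 0 were called, and of 10 genes of the αβ receptor and CD3 complex 0 were called, with 9 lower in both libraries. Others with the largest negative ratios were Tcp11l2, Tdrp, Tmem108, Gm14085, Nckap5l, F2rl1, Pik3ip1, Fbxo32 and Rflnb. Pik3ip1, an inhibitor of PI3 kinase, had log2 ratios of -3.25 and -2.65.

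Of lineage genes, Cd8a and Cd8b1 were called lower, with Cd8b1 log2 ratios of -1.35 and -1.28. Of the CD4 lineage list 0 of 5 genes were called, with a median of 0.00 in TG and 1.44 in WT. Of the killer cell receptor list 6 of 13 genes were called higher and 0 lower, among them Ncr1 with log2 ratios of 3.76 and 3.26 and Fcer1g, a signalling chain of NK cells, with 2.50 and 1.49. Effector genes were not uniform. Gzmb, the granzyme that starts cell death, was at 1173 and 416 CPM against 503 and 274 CPM, with log2 ratios of 1.22 and 0.60, and Ccl5 was lower with -0.74 and -1.49. Of the cytotoxic effector list 1 of 16 genes was called, Serpinb9 with log2 ratios of 1.28 and 1.09. B cell genes were higher, with 3 of 5 called and Cd79a at 144 and 182 CPM against 58.3 and 24.9 CPM. UMIs of both lineages were held by 18.2% of TG and 5.30% of WT members, against 8.27% and 1.46% of the other CD8ab T cells, and the part of doublets in these values was not tested. Scrublet marked 2 TG and 5 WT members. With both sides restricted to CD8b-high cells 518 genes of 4923 were called, not all of them among the 774, and there Cd8b1 had a log2 ratio of 0.00 in WT.

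TG and WT members were compared over 7089 genes with at least 50 UMIs over both profiles. The question is how the dividing cells of this cluster differ between the TG and the WT liver. A 2-fold difference was found for 318 genes (4.49%), with 203 higher in TG (2.86%) and 115 lower (1.62%), and the median log2 ratio was 0.02. In mature B cells 157 of 6682 genes compared in both sets were past 2-fold, and of 258 genes past 2-fold in cluster 7 there, 35 were so in the same direction in B cells. Cell cycle genes did not stand apart, with 0 of 47 S phase genes and 0 of 50 G2 and M phase genes past 2-fold and medians of 0.11 and -0.04. Of the histone list 2 of 11 were past 2-fold, Hist1h2ab with a log2 ratio of 1.44 (0.36 to 2.72) and Hist1h3c with 1.01 (0.31 to 1.78), which fell under 2-fold with 4 of the alternatives, to 0.75 with equal weight of cells. The profiles mix classes in different shares, so values within classes are given for many of the genes below. Classes are subsets of the same cells and not further evidence. Of the 203 genes higher in TG, 187 had 10 UMIs in each class, 158 of these were higher in all 3 classes and 39 were past 2-fold in all 3. Of the 115 lower genes, 98 had 10 UMIs, 75 were lower in all 3 classes and 20 past 2-fold.

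**Figure D5:**
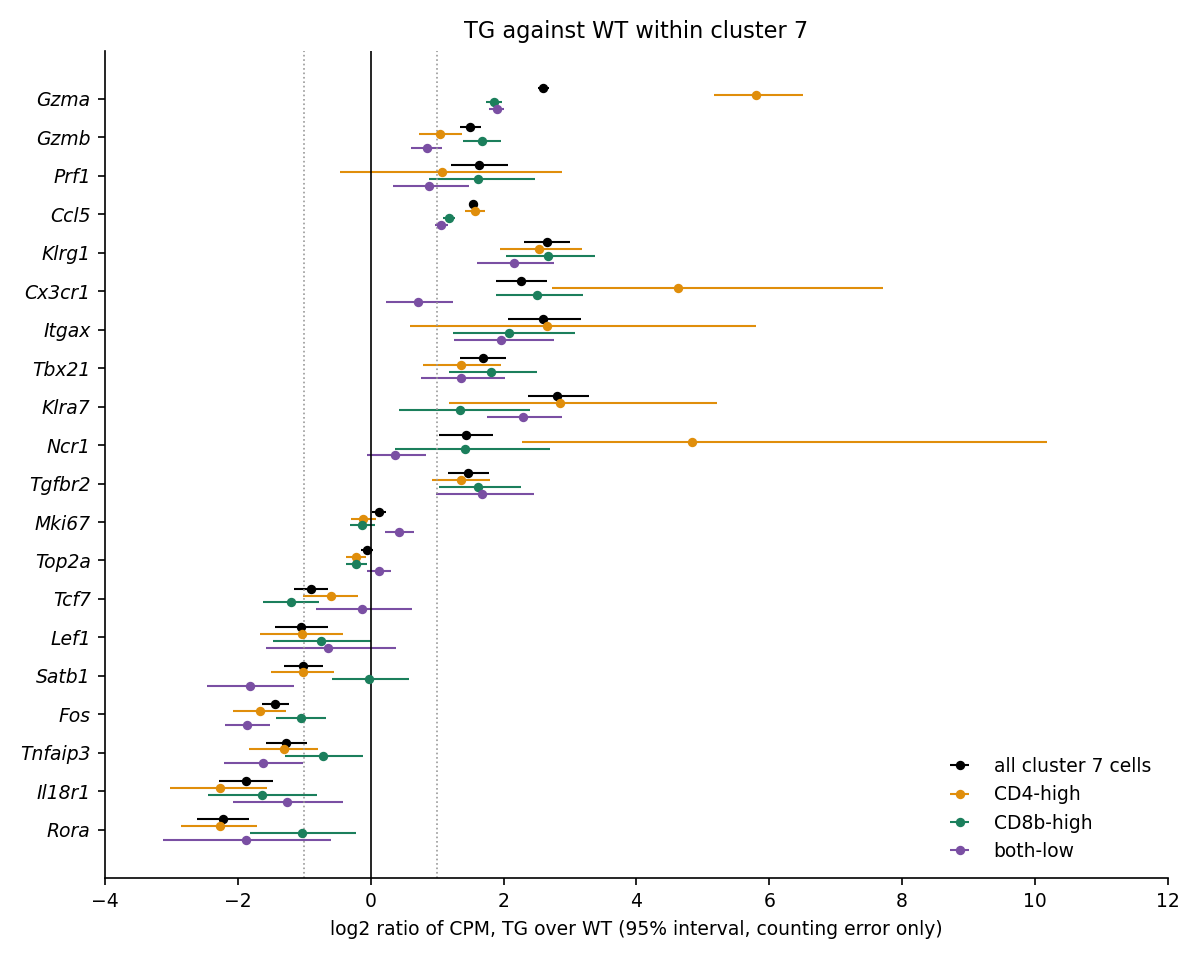
Log2 ratio of CPM in TG over WT for 20 genes in all cluster 7 cells (black) and within the CD4-high, CD8b-high and both-low classes, with 95% intervals that cover counting error only and dotted lines at 2-fold. The points of Gzma, Klrg1 and Tgfbr2 lie above 1 in each of the 3 classes, while that of Ncr1 is at 0.37 in both-low members.

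Effector genes were among those higher in TG. Of the terminal effector list 6 of 8 genes were past 2-fold and higher, with a list median of 1.96, and of the cytotoxic effector list 7 of 16 were past 2-fold higher and 1 lower. Gzma is on both lists. Gzma (chromosome 13, 113093825 to 113100981, minus strand) had 8303 CPM in TG members and 1376 CPM in WT members, a log2 ratio of 2.59 (2.51 to 2.68). A Gzma UMI was in 61 of 77 CD4-high members of TG and 7 of 61 of WT, at 2580 and 46.4 CPM. In mature B cells, which do not make it, the Gzma levels were 423 (TG) and 189 CPM (WT), with a UMI in 35.0% and 6.49% of cells at lower depth. The TG CD4-high level was above that of B cells, and the WT one below it. Klrg1, a receptor of terminal effector T cells (chromosome 6, 122270596 to 122282882, minus strand), was at 502 and 79.9 CPM and had log2 ratios of 2.53 in CD4-high, 2.67 in CD8b-high and 2.15 in both-low members. In mature B cells Klrg1 was at 24.1 and 5.57 CPM. Cx3cr1, a chemokine receptor of effector cells that stay in blood and vessels, was at 317 and 66.1 CPM, and Itgax, which encodes CD11c, at 199 and 33.0 CPM. Tbx21 (T-bet), the factor that drives effector differentiation, was at 267 and 83.1 CPM with log2 ratios from 1.35 to 1.81 in the classes, and Zeb2, which acts with it, had 1.65 over all members but 0.18 (-0.55 to 1.00) in both-low members. Gzmb was at 1173 and 416 CPM, Prf1 (perforin) at 175 and 56.5 CPM and Ccl5 at 7394 and 2542 CPM. Tnf, an inflammatory cytokine, was the effector gene past 2-fold lower, at 26.1 and 62.9 CPM. Within both-low members the log2 ratios were smaller for Cx3cr1 (0.71), Gzmb (0.84) and Prf1 (0.88), while Itgax had 1.96 and Ccl5 1.06. Within CD8b-high members these 5 genes had log2 ratios from 1.18 for Ccl5 to 2.51 for Cx3cr1.

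Killer cell receptors were also higher in TG, with 9 of 15 past 2-fold and 0 lower. With cells thinned to 1000 UMIs the log2 ratios of Ncr1 (0.73), Tyrobp (0.58) and Klre1 (0.95) were under 2-fold, and Tyrobp was so also with equal weight of cells (0.90) and in CD8b-high cells (0.84). Klra7 and Klra1, receptors of the Ly49 family, were at 322 and 205 CPM in TG against 45.8 and 20.3 CPM in WT. Klra7 had a log2 ratio of 2.81 over all members, 1.34 (0.42 to 2.39) within CD8b-high and 2.29 within both-low members. Klra6 was at 91.8 CPM in TG and had 3 UMIs in 1 WT cell, a log2 ratio of 4.84 (3.28 to 7.13), and 210 of its 222 TG UMIs were in both-low members. In mature B cells the log2 ratios were 1.40 (0.50 to 2.37) for Klra1, 1.32 (0.13 to 2.63) for Klra6 and 1.05 (0.42 to 1.705) for Klra7. B cell levels of these genes were low, at 19.05 CPM or less in TG. Their higher TG level was thus not limited to cluster 7. Reads of Ly49 genes may be split among close copies, so single Klra values are uncertain. Ncr1 was at 169 and 62.9 CPM over all members but had a log2 ratio of 0.37 (-0.06 to 0.83) within both-low members, so the ratio was smaller within the class that holds most Ncr1 UMIs. Cdkn1a and Cdkn2a, inhibitors of the cell cycle, were at 55.8 and 16.0 CPM and at 27.3 and 7.46 CPM, and Cdkn1a had a log2 ratio of -0.65 (-1.76 to 0.55) within CD8b-high members. Klf4 of the same list of inhibitors and quiescence factors was lower, at 12.4 and 41.6 CPM, and over the 15 genes of that list 7 were higher and 8 lower with a median of 0.00. Other genes with the largest ratios were Mt2 and Mt3 (metallothioneins), Stk32c, Ifitm10 and Ighg2c. In mature B cells Stk32c had a log2 ratio of 1.17 (0.02 to 2.42) and Mt2 of 1.42 (-1.19 to 4.81). Mt3 had 0.68 and Ifitm10 0.43 there. Ighg2c, an antibody constant region, had 80 UMIs over 72 TG members and 0 in WT members. In mature B cells Ighg2c was at 37.2 CPM in TG and also at 0 in WT, so this difference was not limited to cluster 7. A 0 can be a filter, and whether the WT 0 of Ighg2c was one was not tested. The neutrophil genes S100a8 and S100a9 had log2 ratios of 1.71 and 1.78, and 0.89 and 1.04 in mature B cells.

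Genes of naive and memory T cells were among those lower in TG. Of the naive and memory list 3 of 10 were past 2-fold lower, with a list median of -0.70. Lef1 had 51.7 CPM in TG members and 107 CPM in WT members, Satb1, a chromatin organiser, at 89.7 and 181 CPM, and Ccr7 at 16.5 and 37.3 CPM. Within CD8b-high members the log2 ratio of Satb1 was -0.02 (-0.59 to 0.58), against -1.01 over all members, and that of Lef1 was -0.76, while Tcf7 had -1.203 (-1.63 to -0.77) there and -0.90 over all members. Of the lineage lists, 0 of 5 CD4 lineage genes and 0 of 5 γδ and NKT genes were past 2-fold. Of 4 CD8 lineage genes 1 was past 2-fold higher, Cd7 at 723 and 307 CPM, a log2 ratio of 1.24. Within CD8b-high members Cd7 had 0.58, under 2-fold. Rora, the nuclear receptor RORα of innate-like T cells, was at 35.6 and 166 CPM, a log2 ratio of -2.23 (-2.62 to -1.84), and Il18r1, a chain of the IL-18 receptor, at 36.4 and 133 CPM, a log2 ratio of -1.87 (-2.28 to -1.47). Within CD8b-high members Rora had -1.03 and Il18r1 -1.63, and in mature B cells they had -1.38 and -0.84. Icos was at 143 and 328 CPM over all members but had a log2 ratio of -0.48 within CD4-high members, and Ccr2, with -1.33 over all members, had 0.24 within CD8b-high members. Foxp3 was at 17.4 and 53.3 CPM, with UMIs in 9 TG and 10 WT members. Of 8 regulatory T cell genes 3 were past 2-fold lower and 1 higher, and of 16 genes of exhaustion and fate 4 were lower and 2 higher. Of the TGF-β pathway list, 1 of 9 genes was past 2-fold, Tgfbr2 itself, and the list median was -0.23. Fos and Tnfaip3 of the AP-1 and NF-κB list were past 2-fold lower, and 10 of its 12 genes were lower, against 3408 of all 7089 genes. Within CD8b-high members Fos had a log2 ratio of -1.05 and Tnfaip3 of -0.71, the latter under 2-fold. Besides Rora and Il18r1, the naming rule (at most 50% of UMIs in 3 cells) gave Tmem176b, Tbc1d4, Ramp1, Ckb, Rgcc, Tmem273, St6gal1 and Emb as the genes with the most negative ratios, from -2.92 (-3.91 to -2.01) for Tmem176b to -1.85 for Emb. In mature B cells Ckb had -2.28, Ramp1 -2.07, Emb -1.72, Rgcc -1.39, Tmem273 -1.295 and Tbc1d4 -1.225 (-2.88 to 0.22). The differences of these genes were thus not limited to cluster 7, while Tmem176b had -0.36 and St6gal1 0.29 in B cells. Within CD8b-high members Ckb had 0.006 (-2.48 to 3.35). Jchain, a plasma cell gene, had 30.6 CPM (TG) and 782 CPM (WT), and in WT members 99.7% of its UMIs came from 3 cells.

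Surface proteins were compared as medians of the deposited antibody values. CD49d, the α4 integrin, was at 3.55 in TG members (quartiles 2.74 to 4.01) and 1.74 in WT members (0.756 to 3.17). On mature B cells CD49d was at 2.06 and 2.07. CD49b, the α2 integrin, was at 2.09 and 0.76 on members and at 0.18 and 0.11 on B cells. The higher TG value was not particular to members, since CD49b was at 1.13 and 0.20 on the other CD8ab T cells and at 2.01 and 1.23 on NK cells, and CD49d at 2.07 and 1.78 and at 2.89 and 1.47. CD49a, the α1 integrin of liver-resident cells, was at 1.93 and 0.48 on members and 0.35 and 0.27 on B cells. On the other CD8ab T cells CD49a was at 0.949 and 0.396, and on NK cells at 3.11 and 1.83. Its transcript Itga1 had a TG over WT log2 ratio of 1.17, but Cxcr6 had -1.40, and -0.61 within CD8b-high members. Of 13 genes of the residency and homing list 3 were past 2-fold lower in TG and 1 higher, with a median of -0.25. All 3 integrin medians were higher on TG members in each of the 3 classes, with CD49d at 3.27 and 0.90 on CD4-high members and at 3.53 and 2.85 on CD8b-high members. CD11c, the protein of Itgax, was at 1.08 and 0.40 on both-low members, 0.72 and 0.26 on CD8b-high members and 0.13 and 0.17 on CD4-high members. CD44, a protein of activated T cells, was at 3.30 and 3.43 on members, while on the other CD8ab T cells it was at 3.20 and 2.02. Of those other cells the naive cluster 4 made up 145 of 701 in TG and 363 of 687 in WT. CD5, which is high on helper T cells, was at 2.27 and 3.24 and followed the classes, with 3.37 and 3.91 on CD4-high and 1.202 and 1.237 on both-low members. CD71, the transferrin receptor of dividing cells, was at 0.24 and 0.22 on members and at 0 on the other CD8ab T cells of both libraries. On mature B cells CD71 was at 0.19 and 0.15, so it was not particular to members. The median CD71 counts were low, at 2 on members and 1 on B cells in both libraries. The CD4 antibody was higher in TG also on cells low for it, with 0.80 and 0.35 on mature B cells, which is why gates were set per library.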

How the data were processed

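Liver CD45+ cells of TG and WT mice were profiled by BD Rhapsody whole transcriptome and antibody sequencing, 1 pooled library each. Per the file headers and the methods, reads were mapped to mm10 by STAR in the BD Rhapsody pipeline. The authors deposited UMI counts per gene and antibody, filtered cells and genes, joined libraries by canonical correlation in Seurat, and clustered and named the cells. Antibody values were deposited as the natural log of 1 plus the count over a cell's geometric mean. The mitochondrial percent per cell was also deposited by the authors. The filters behind the deposited tables are not given in the sources used here. Log-normalised values were not used.

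Members were taken from the deposited cell names and cluster numbers, and the members and gene lists were chosen with earlier results of these data known. UMI counts were summed over cells of a set and given as CPM. Since each genotype had 1 library, no test was run. Intervals are 95% (Poisson for CPM, Clopper-Pearson for shares, Newcombe for differences of shares, conditional binomial for ratios) and cover counting error only. Genes with at least 50 UMIs over both profiles (in each library for comparisons within libraries) were compared, and called means past 2-fold. Besides the list genes, the 10 highest and 10 lowest ratios were named among genes with UMIs in at least 10 cells of the higher profile, at most 50% of its UMIs in 3 cells and the same direction under TMM and equal cell weight. For comparisons within libraries the smaller of both ratios set the rank. Receptor and immunoglobulin V, D and J segments, Xist, Tsix and Y-linked genes were left out. For cluster 7 against the other CD8ab clusters, genes of the cell cycle lists were left out as well. So were families taken by the start of the gene name, such as Mcm, Hist, Cenp, Kif, Cdc, Cdk, Ccn, Tuba, Tubb and Pol. Some listed or named genes and antibodies are not reported here. Genes called out beyond the lists and this rule were picked after their values were seen.

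Doublets were marked with Scrublet (expected share 5%), and mixed cells were those in which B lineage and T lineage genes each had 2 or more UMIs. Marked cells were kept in the main values. Intervals were tested on simulated Poisson counts with 200 changed genes and held the true ratio for 95.6% of 7070 genes in TG against WT. Such counts follow the model of the intervals and have no spread between cells, so this checks the computation only. Python 3.11.15, numpy 2.4.6, scipy 1.17.1, pandas 2.3.3, scikit-learn 1.9.0, scanpy 1.11.5, R 4.3.3 and edgeR 4.0.16 (TMM factors only) were used. Alternatives were TMM scaling, equal weight of cells, totals that leave out ribosomal and mitochondrial genes, a minimum of 10 UMIs, thinning to 1000 UMIs, CD8b-high cells only, other gates and denominators, and leaving out doublets or mixed cells. Leaving mixed cells out of the gene ratios and of the CD4-high share was chosen after seeing the data.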

Additional observations from a re-analysis of the deposited data

Results flagged for a closer look

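For 2 genes the ratio of cluster 7 over the other CD8ab T clusters lay past 2-fold in opposite directions in the TG and WT libraries. Klra6, a receptor of the Ly49 family, had a log2 ratio of 2.88 in TG and -2.79 in WT, where members held 3 UMIs. Rora, the nuclear receptor RORα, had a log2 ratio of -1.18 in TG and 1.22 in WT. With 1 library per genotype the difference between the libraries was not tested for either gene.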

How the results depend on the processing

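No paired analysis was possible because each genotype had 1 library, and for the same reason no replicate could be left out. With a minimum of 10 UMIs the genes past 2-fold were 1157 in place of 318 for TG against WT, 1328 in place of 774 for cluster 7 against the other CD8ab T clusters, and 201 in place of 35 for CD4-high against CD8b-high members, since more genes of low count enter. With cells thinned to 1000 UMIs the first 2 counts were 82 of 1686 genes and 238 of 2681 genes, of which 32 and 186 were among those reported. With CD8b-high cells only, 227 genes were past 2-fold between TG and WT, of which 75 were among the 318. The difference in the share of members was 5.05 points, and 4.28 points without mixed B and T cells, 15.2 points among CD8ab T cells and 11.8 points among T and NKT cells. The difference in the CD4-high share of -22.1 points was -11.7 with 1 gate for both libraries. It reversed to 4.69 with transcripts, which also limits the cells to the 243 TG and 84 WT members with a Cd4 or Cd8b1 UMI, and the cause was not tested. Of 2165 recomputed values over 348 gene ratios, 1882 lay within the reported interval, 279 lay outside it with called ones keeping their sign, and 4 called ones reversed. These 4 were found with CD8b-high cells only. They were Ccr2 in TG over WT at 0.24, and in cluster 7 over the other clusters Cd8b1 at 0.00116 and Maf at -0.20 in WT, and Tcrg-C2 at -0.19 in TG. Of 906 list medians 861 moved by at most 0.5 and 44 by more, and the regulatory T cell list reversed to -0.15 in WT with the same cells.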
